A study of Mus musculus with 12 samples.

Results

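The interleukin-1 family and its receptors were examined in scar tissue of mice through the genes *Il1a*, *Il1b*, *Il1rn*, *Il1r1*, *Il1r2*, *Il1rap*, *Il33*, *Il1rl1*, *Il18* and *Il18r1*. These 10 genes were chosen by their symbols, out of 35976 genes listed in the count files, and all 10 were among the 18853 genes that had enough counts to be tested. The RNA-seq data covered 12 scars, 3 from male mice in each of 4 groups: *Tem1WT/WT* sham, *Tem1WT/WT* traction, *Tem1lacZ/lacZ* sham and *Tem1lacZ/lacZ* traction. In *Tem1lacZ/lacZ* mice, which had been backcrossed to C57BL/6J, lacZ takes the place of the only exon of *Tem1* (*Cd248*) in all cells, so the loss of TEM1 is global and not limited to fibroblasts. All mice were 8 to 12 weeks old and carried a 1.5-cm wound on the back that was fitted with a plastic device 6 days later. The device was lengthened by 1 mm/day to 8 mm in the traction groups and left as it was in the sham groups, so the sham groups share the wound and the device. No group without a wound was analysed here.

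IL-1α and IL-1β are early alarm cytokines of injured skin. Both signal through the receptor IL-1R1 together with its partner IL-1RAP, and the adaptor MyD88 carries the signal on to NF-κB, which switches on neutrophil-attracting chemokines, prostaglandin synthesis and matrix-degrading enzymes. The pathway is held back by the receptor antagonist encoded by *Il1rn*, which occupies IL-1R1 without signalling, and by the decoy receptor encoded by *Il1r2*. IL-33 and IL-18 are related alarm cytokines with receptors of their own, ST2 (*Il1rl1*) and the IL-18 receptor (*Il18r1*).

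The genes lie in a few clusters of the mouse genome (GRCm38.p6, RefSeq). *Il1a* (chr2:129299609-129310186, minus strand) and *Il1b* (chr2:129364569-129371164, minus strand) are neighbours, and *Il1rn* (chr2:24336860-24351491, plus strand) lies on the same chromosome. The receptor genes *Il1r2*, *Il1r1*, *Il1rl1* and *Il18r1* form a row between positions 40084692 and 40500854 of chromosome 1, all on the plus strand. *Il1rap* is on chromosome 16, *Il33* on chromosome 19 and *Il18* on chromosome 9. In the GENCODE vM21 annotation, exons of *Il1a*, *Il1b* and *Il1rap* overlap a gene on the opposite strand (*Gm14023*, *Il1bos* and *Gm20319*). The strand setting of the counting is not given in the sources used here, so reads of these pairs may not be told apart.

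The promoters of the agonists *Il1a* and *Il1b* and of the antagonist *Il1rn* are shown. These 3 genes reached by far their highest levels in the same library, as described below. So did *Il1r2* and *Il1rap*, whose promoters are not shown. Each sequence runs 5′ to 3′ on the strand of the gene, from 250 bases before the RefSeq start to 50 bases after it, at chr2:129309923-129310222 (minus strand), chr2:129371090-129371389 (minus strand) and chr2:24336610-24336909 (plus strand, the most upstream of 3 listed starts). Capitals mark matches to the AP-1 motif TGANTCA and to the TATA motif TATAAA.
Il1a: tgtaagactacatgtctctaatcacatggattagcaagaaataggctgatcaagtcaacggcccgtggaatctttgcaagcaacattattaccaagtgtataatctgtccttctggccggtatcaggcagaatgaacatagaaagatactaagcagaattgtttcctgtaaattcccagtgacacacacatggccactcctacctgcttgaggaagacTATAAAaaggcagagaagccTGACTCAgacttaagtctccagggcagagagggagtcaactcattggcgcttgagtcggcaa
Il1b: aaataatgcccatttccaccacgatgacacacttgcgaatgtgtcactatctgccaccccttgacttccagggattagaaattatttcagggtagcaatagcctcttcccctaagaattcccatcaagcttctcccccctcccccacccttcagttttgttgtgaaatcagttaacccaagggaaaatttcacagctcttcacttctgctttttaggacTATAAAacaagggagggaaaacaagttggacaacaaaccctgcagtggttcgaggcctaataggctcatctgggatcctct
Il1rn: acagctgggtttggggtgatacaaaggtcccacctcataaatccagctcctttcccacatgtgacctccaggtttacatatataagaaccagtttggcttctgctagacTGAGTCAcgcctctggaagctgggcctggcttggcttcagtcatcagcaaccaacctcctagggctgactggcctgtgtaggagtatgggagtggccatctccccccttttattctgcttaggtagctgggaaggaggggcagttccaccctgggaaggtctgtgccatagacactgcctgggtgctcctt
A TATA match began 32 bases before the start of *Il1a* and 31 bases before that of *Il1b*. An AP-1 match began 12 bases before the start of *Il1a* and 141 bases before this start of *Il1rn*. On both strands and over 32851 mouse promoters of the same length, 7.81% held the AP-1 motif, 13.6% the TATA motif and 8.46% the κB consensus, which none of these 3 sequences matched. The promoters of *Il1r2* and *Il1rap* matched none of these motifs, and the other listed starts of *Il1rn* had no AP-1 match. A match describes letters only and says nothing of binding.

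All 12 libraries were deep, with 41536788 to 64644293 counts, and no library held fewer than 170 counts on any of the 10 genes, so counting error was small beside the differences between scars. Levels are CPM, that is counts divided by library sizes scaled with TMM, and the biological coefficient of variation over all genes was 34.2%. *Cd248* itself was at 92.4 to 337 CPM in *Tem1WT/WT* and at 0 to 13 counts in *Tem1lacZ/lacZ* libraries. Markers of keratinocytes and fibroblasts were high in every library, with summed levels of at least 17436 and 18395 CPM. One library stood apart: in *Tem1WT/WT* traction replicate 1, 7 of the 10 genes had their highest level of all 12 libraries, and so did the sum of 13 neutrophil markers, at 7531 CPM against 724 CPM or less in the other 11. The main results for the 10 genes in contrasts that include this library are therefore given with and without it, as are most counts of the gene lists. The spread of each gene is estimated over all 12 libraries, so this library also enters the SEs of the other contrasts. In bulk tissue, more cells of a type and more RNA per cell cannot be told apart.

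**Figure D1:**
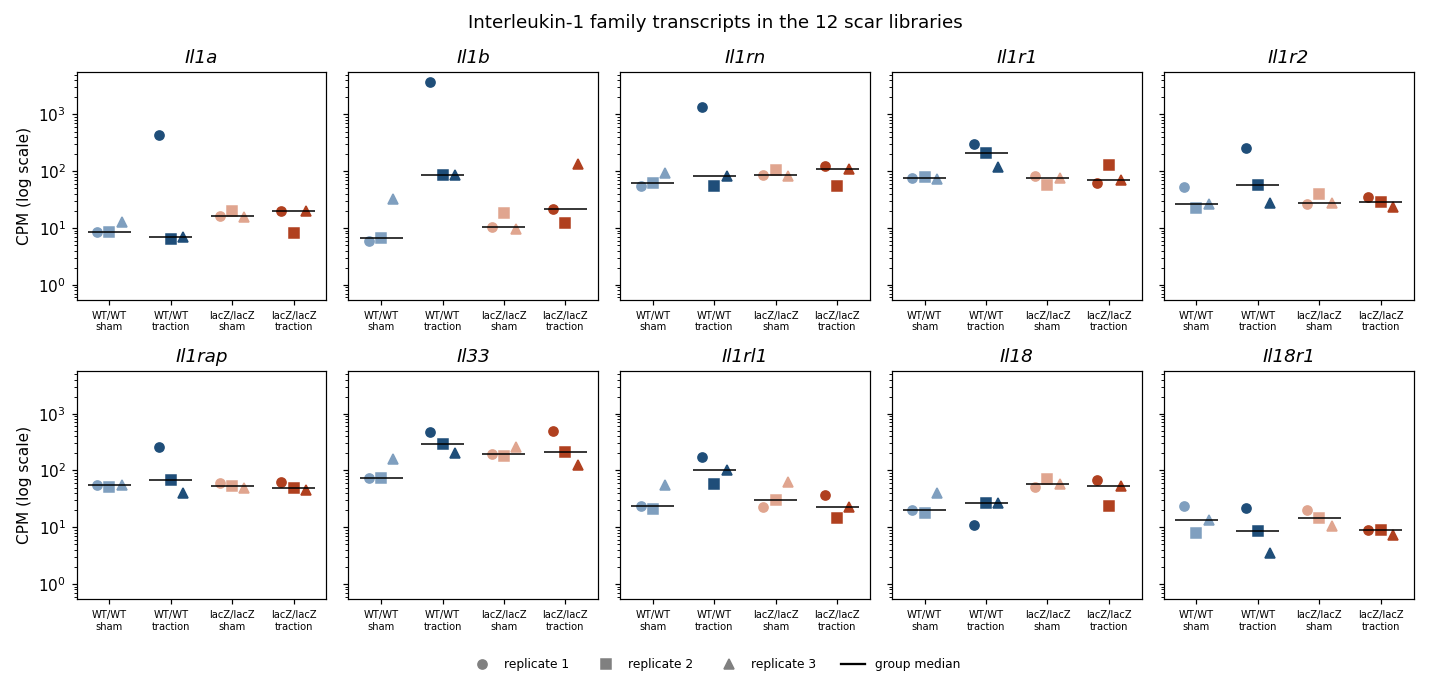
Level of each of the 10 genes in CPM (log scale) in every library, by genotype and treatment. Symbols mark replicate numbers and lines the group median. *Il1b* spans from 5.90 to 3698 CPM, and *Tem1WT/WT* traction replicate 1 is the highest library for 7 of the genes.

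In unstretched *Tem1WT/WT* scars, transcripts of the whole family were detected at moderate levels. Per kilobase of exon, the mean was highest for *Il33*, at 34.9 CPM/kb, and *Il18*, at 25.1 CPM/kb. It was 18.0 CPM/kb for the decoy receptor *Il1r2*, 12.6 CPM/kb for the antagonist *Il1rn* and 11.9 CPM/kb for *Il1r1*. The mean was 7.87 CPM/kb for *Il1b*, 4.97 CPM/kb for *Il1a*, 4.79 CPM/kb for *Il1rap*, 4.77 CPM/kb for *Il1rl1* and 3.10 CPM/kb for *Il18r1* (n = 3 each). The ranges of every neighbouring pair in this order overlapped.

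Traction in *Tem1WT/WT* mice was compared with sham first, since this is the comparison that asks what mechanical stretch does to a scar. *Il1b* and its signalling receptor *Il1r1* rose, and *Il33* and its receptor *Il1rl1* were higher in every traction than in every sham library without passing the adjusted threshold. Of the 10 genes, 2 passed an adjusted p under 0.05 by edgeR's quasi-likelihood test, both higher, where 9.15% of all genes tested passed in either direction and 5.61% passed as higher. At an unadjusted p under 0.05 there were 8 of 10 against 31.4% of all genes. The groups did not overlap for 4 genes, all higher in traction, against 35.7% of all genes in either direction. The median log2 fold change was 1.71 over the 10 genes and -0.01 over all genes, and without *Tem1WT/WT* traction replicate 1 it was 0.15 and -0.05. Without that library 0 of the 10 genes passed, where 1.86% of all genes did, and 5 (*Il1b*, *Il1r1*, *Il33*, *Il1rl1* and, lower, *Il18r1*) had an unadjusted p under 0.05, against 26.9% of all genes.

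*Il1b*, which encodes the main secreted agonist of the pathway, stood at 5.90, 6.53 and 32.6 CPM in *Tem1WT/WT* sham libraries. In *Tem1WT/WT* traction libraries it was at 3698, 86.0 and 84.9 CPM. Every traction library was above every sham library, and replicate 1, with 155431 counts, was the highest by a wide margin. The log2 fold change was 6.42 (SE 1.70, adjusted p = 0.0432). Without replicate 1 it was 2.49 (SE 0.96, adjusted p = 0.134), so the size and the call rested on that library. Since it was the highest of its group, leaving it out could change neither the direction nor the lack of overlap. *Il1a*, the cell-associated agonist, went another way, at 8.38, 8.37 and 12.7 CPM in sham and at 427, 6.36 and 6.86 CPM in traction. Replicate 1 was far above the sham libraries and both other traction libraries were below all of them. The log2 fold change of *Il1a* was 3.90 (SE 1.33, adjusted p = 0.0788), and -0.59 (SE 0.35, adjusted p = 0.302) without replicate 1.

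*Il1rn*, the antagonist, was also far above the sham libraries in replicate 1 alone. Its levels were 54.3, 62.5 and 92.2 CPM in *Tem1WT/WT* sham and 1344, 55.8 and 82.8 CPM in *Tem1WT/WT* traction. Outside replicate 1, the traction values fell within the sham range. The log2 fold change was 2.83 (SE 0.98, adjusted p = 0.0817), and -0.03 (SE 0.33, adjusted p = 0.965) without that library.

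Among the receptors, *Il1r1*, which transmits the IL-1 signal in fibroblasts and other stromal cells, had closely spaced sham values. It was at 76.3, 78.6 and 72.7 CPM in *Tem1WT/WT* sham and at 298, 212 and 121 CPM in *Tem1WT/WT* traction. All 3 stretched scars were higher than all sham scars. The change was 2.77-fold, a log2 fold change of 1.47 (SE 0.34, adjusted p = 0.0339), and it was 1.12 (SE 0.33, adjusted p = 0.0753) without replicate 1. The call was narrowly held, as was that of *Il1b*. Without *Tem1WT/WT* sham replicate 1, 2 or 3 the adjusted p was 0.127, 0.0947 and 0.0661 for *Il1r1* and 0.151, 0.124 and 0.0636 for *Il1b*, and without *Tem1lacZ/lacZ* sham replicate 3 it was 0.0564 and 0.0670. The call of *Il1b* was also lost without *Tem1lacZ/lacZ* sham replicate 1 or 2 or *Tem1lacZ/lacZ* traction replicate 2, with an adjusted p of 0.0588, 0.0595 and 0.0533. The log2 fold change stayed between 1.12 and 1.76 for *Il1r1* and between 2.49 and 7.70 for *Il1b* when any 1 library was left out.

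The decoy receptor *Il1r2*, which binds IL-1 without signalling, was at 53.8, 22.9 and 26.2 CPM in *Tem1WT/WT* sham and at 260, 56.7 and 27.2 CPM in traction. The groups overlapped, and the log2 fold change was 1.74 (SE 0.67, adjusted p = 0.106), or 0.28 without replicate 1. *Il1rap*, the shared signalling partner, was at 56.4, 50.7 and 56.2 CPM in sham and at 260, 66.8 and 39.6 CPM in traction. Its log2 fold change was 1.16 (SE 0.52, adjusted p = 0.156), and -0.05 without replicate 1. For both genes replicate 1 lay well above the other traction libraries.

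*Il33*, a nuclear alarm cytokine of epithelial and stromal cells, stood at 72.7, 72.1 and 157 CPM in *Tem1WT/WT* sham and at 469, 295 and 199 CPM in traction. *Il1rl1*, its receptor, was at 23.7, 20.7 and 54.4 CPM in sham and at 172, 57.0 and 102 CPM in traction. For both genes the lowest stretched scar was above the highest sham scar. The log2 fold change of *Il33* was 1.67 (SE 0.50, adjusted p = 0.0591) and that of *Il1rl1* was 1.75 (SE 0.55, adjusted p = 0.0639). Without replicate 1 they were 1.28 (SE 0.50, adjusted p = 0.141) and 1.25 (SE 0.53, adjusted p = 0.164). Neither passed the threshold with all libraries. Without *Tem1WT/WT* traction replicate 2, *Il1rl1* passed (2.07, adjusted p = 0.0339), as did *Il1a* (4.48, adjusted p = 0.0285) and *Il1rn* (3.37, adjusted p = 0.0272), and without *Tem1lacZ/lacZ* traction replicate 1 *Il33* passed (1.67, adjusted p = 0.0352).

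*Il18* and *Il18r1* did not rise with traction. *Il18*, a cytokine made as an inactive precursor in keratinocytes and macrophages, was at 20.3, 17.9 and 39.3 CPM in *Tem1WT/WT* sham and at 11.1, 26.4 and 26.6 CPM in traction. *Il18r1* was at 23.8, 7.88 and 13.1 CPM in sham and at 22.1, 8.48 and 3.49 CPM in traction. Their ranges overlapped, with a log2 fold change of -0.27 for *Il18* (95% interval from -1.23 to 0.68) and -0.40 for *Il18r1* (95% interval from -1.65 to 0.86). Without replicate 1 that of *Il18* was 0.0181 and that of *Il18r1* was -1.33 (SE 0.50, adjusted p = 0.126).

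**Figure D2:**
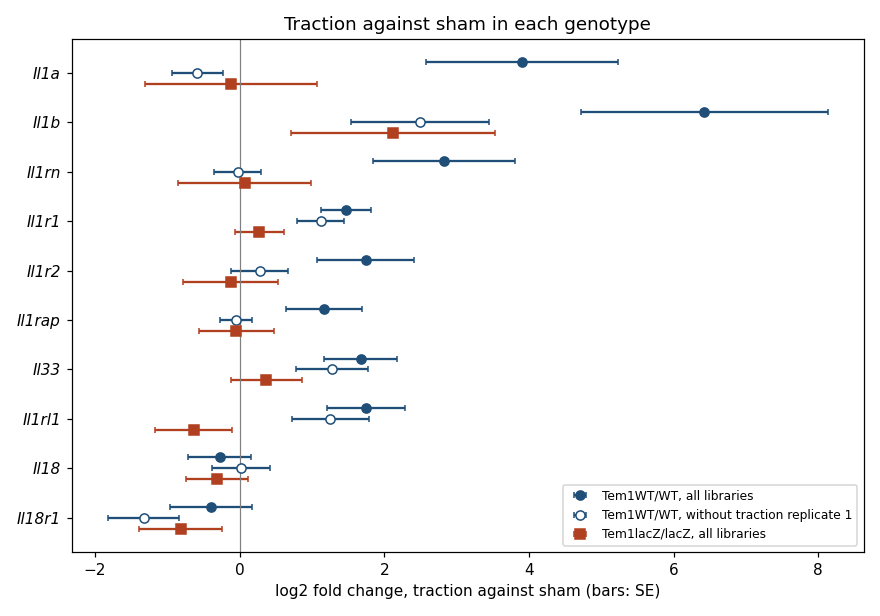
Log2 fold change of traction against sham for each gene (x axis, bars show the SE), in *Tem1WT/WT* mice with all libraries (filled circles), in *Tem1WT/WT* mice without traction replicate 1 (open circles) and in *Tem1lacZ/lacZ* mice (squares). *Il1b*, *Il1r1*, *Il33* and *Il1rl1* keep positive values of 2.49, 1.12, 1.28 and 1.25 in *Tem1WT/WT* mice without that library, while *Il1a*, *Il1rn* and *Il1rap* lie at or below 0.

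Traction was next compared with sham in *Tem1lacZ/lacZ* mice. With all libraries, none of the 10 genes passed in edgeR, at an adjusted p (0% of all genes) or at an unadjusted p under 0.05 (8.12% of all genes). *Tem1WT/WT* traction replicate 1 enters this contrast through the spread, which all groups share. Without it *Il1b* alone had an unadjusted p under 0.05 in edgeR, where 2109 of 19388 genes did. Its log2 fold change was then 2.16 (SE 0.89, unadjusted p = 0.0349, adjusted p = 0.435). DESeq2 also called none of the 7 genes for which it gave an adjusted p, and limma-voom called none of the 10. *Il1b* was at 10.4, 18.2 and 9.73 CPM in *Tem1lacZ/lacZ* sham and at 21.9, 12.1 and 133 CPM in traction. Replicate 3 was high and the others reached into or near the sham range, with a log2 fold change of 2.12 (SE 1.41, adjusted p = 0.683). Without *Tem1lacZ/lacZ* traction replicate 3 it was 0.40 (adjusted p = 0.995). *Il1r1* was at 82.8, 56.3 and 77.5 CPM in sham and at 61.1, 130 and 70.2 CPM in traction. Its log2 fold change was 0.27, with a 95% interval from -0.47 to 1.01.

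*Il33* ranged from 183 to 257 CPM in *Tem1lacZ/lacZ* sham and from 126 to 487 CPM in traction, and *Il1rl1* from 23.0 to 62.5 CPM in sham and from 14.7 to 36.9 CPM in traction. The groups of both genes overlapped. *Il18r1* was the 1 gene of the 10 whose groups did not, at 20.2, 14.2 and 10.5 CPM in sham and at 9.07, 9.08 and 7.35 CPM in traction, where 12.9% of all genes showed no overlap. Its log2 fold change was -0.82 (SE 0.57, adjusted p = 0.698). *Il1a*, *Il1rn*, *Il1r2* and *Il1rap* had log2 fold changes between -0.13 and 0.07, and the median over the 10 genes was -0.09.

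The genotypes were then compared under traction, which shares the stretched *Tem1WT/WT* libraries with the first comparison. No gene of the 10 passed at an adjusted p under 0.05 (0.106% of all genes did), and 8 had an unadjusted p under 0.05 in edgeR (26.1% of all genes). Without *Tem1WT/WT* traction replicate 1 only *Il1r1*, *Il1rl1* and, higher in *Tem1lacZ/lacZ* mice, *Il1a* did, along with 3951 of 19388 genes. *Il1rl1* was the 1 gene without overlap, lower in every *Tem1lacZ/lacZ* traction library, at 36.9, 14.7 and 23.0 CPM, than in the *Tem1WT/WT* traction libraries listed above (26.6% of all genes showed no overlap). Its log2 difference was -2.15 (SE 0.55, adjusted p = 0.0951), or -1.65 (SE 0.53, adjusted p = 0.185) without *Tem1WT/WT* traction replicate 1, and it passed without *Tem1WT/WT* traction replicate 2 (-2.46, adjusted p = 0.0328). *Il1r1* had a log2 difference of -1.27 (SE 0.34, adjusted p = 0.0951), and -0.90 (adjusted p = 0.201) without replicate 1. DESeq2 called *Il1r1*, *Il1r2* and *Il1rl1* lower, with an adjusted p of 0.0104, 0.0227 and 0.00330.

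The values of *Il1b*, *Il1a* and the antagonist *Il1rn* depended on a single library here. The log2 difference of *Il1b* was -4.54 (SE 1.56, adjusted p = 0.119) with all libraries and -0.58 (SE 0.94, adjusted p = 0.735) without *Tem1WT/WT* traction replicate 1. That of *Il1a* was -3.21 (adjusted p = 0.153) and turned to 1.30 (SE 0.36, adjusted p = 0.170), and that of *Il1rn* was -2.37 (adjusted p = 0.156) and turned to 0.50. *Il18* was the 1 gene with a higher value in *Tem1lacZ/lacZ* traction, at 66.5, 23.7 and 52.6 CPM, a log2 difference of 1.16 (SE 0.44, adjusted p = 0.140), or 0.87 (adjusted p = 0.264) without replicate 1. The log2 difference was -1.99 for *Il1r2* (adjusted p = 0.117) and -1.23 for *Il1rap* (adjusted p = 0.170), and -0.52 and -0.0078 without replicate 1. That of *Il33* was -0.23 (adjusted p = 0.791), and 0.17 without replicate 1.

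In sham mice, no gene of the 10 passed between the genotypes (0.0106% of all genes did), and with all libraries *Il18* alone had an unadjusted p under 0.05 in edgeR (11.7% of all genes). *Il18* was at 50.4, 70.4 and 56.6 CPM in *Tem1lacZ/lacZ* sham, all above the highest *Tem1WT/WT* sham library at 39.3 CPM. Its log2 difference was 1.19 (SE 0.44, adjusted p = 0.409). *Il33* (1.07, SE 0.50, adjusted p = 0.435) and *Il1a* (0.82, SE 1.20, adjusted p = 0.806) were also higher in every *Tem1lacZ/lacZ* than in every *Tem1WT/WT* sham library. These made 3 of 10 genes without overlap, against 26.8% of all genes. *Tem1WT/WT* traction replicate 1 enters this contrast only through the shared spread. Without it the same 3 genes had an unadjusted p under 0.05 in edgeR, where 2663 of 19388 genes did. The values were then 1.17 for *Il18* (SE 0.37, adjusted p = 0.345), 1.05 for *Il33* (SE 0.46, adjusted p = 0.358) and 0.80 for *Il1a* (SE 0.31, adjusted p = 0.345).

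The genotype by traction interaction asks whether the response to traction itself differed between genotypes. No gene of the 10 passed (0% of all genes did), and 3 had an unadjusted p under 0.05 in edgeR (8.91% of all genes). DESeq2 called none of 7 and limma-voom none of 10. The values were -2.38 for *Il1rl1* (SE 0.76, adjusted p = 0.548), -1.20 for *Il1r1* (SE 0.48, adjusted p = 0.548) and -4.02 for *Il1a* (SE 1.74, adjusted p = 0.548), where a negative value means a smaller response in *Tem1lacZ/lacZ* mice. Without *Tem1WT/WT* traction replicate 1 they were -1.86, -0.81 and 0.50. *Il1rl1* alone then had an unadjusted p under 0.05 in edgeR, where 1548 of 19388 genes did. The interaction of *Il1b* was -4.31 with a 95% interval from -8.69 to 0.08, and -0.33 without that library. A difference in response between the genotypes was thus not shown for any gene of the family.

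Averaged over both genotypes, traction raised 2 of the 10 genes, where 9.73% of all genes passed, and 3 had an unadjusted p under 0.05 (30.7% of all genes). *Il1b* was higher by a log2 fold change of 4.27 (SE 1.09, adjusted p = 0.0394) and *Il1r1* by 0.87 (SE 0.24, adjusted p = 0.0458). Without *Tem1WT/WT* traction replicate 1 the values were 2.33 (adjusted p = 0.0514) and 0.71 (adjusted p = 0.0687). The call of *Il1b* was also lost without any 1 of the 6 sham libraries or without *Tem1lacZ/lacZ* traction replicate 2 or 3, with an adjusted p between 0.0512 and 0.102, and its value was 3.42 without *Tem1lacZ/lacZ* traction replicate 3. That of *Il1r1* was lost without the same libraries or *Tem1WT/WT* traction replicate 2, with an adjusted p between 0.0501 and 0.112. *Il33* was the third gene, at 1.02 (SE 0.35, adjusted p = 0.0826), or 0.83 (adjusted p = 0.130) without *Tem1WT/WT* traction replicate 1. Without that library these 3 genes and, lower, *Il18r1* (-1.06, adjusted p = 0.0650) had an unadjusted p under 0.05 in edgeR, where 5923 of 19388 genes did.

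The balance of antagonist and agonist was followed as the ratio of *Il1rn* to *Il1b* CPM within each library, which does not depend on how libraries are scaled. The ratio was 9.06, 9.44 and 2.82 in *Tem1WT/WT* sham and 0.364, 0.648 and 0.976 in *Tem1WT/WT* traction. It was 8.06, 5.80 and 8.42 in *Tem1lacZ/lacZ* sham and 5.66, 4.52 and 0.811 in *Tem1lacZ/lacZ* traction. In both genotypes every traction library was below every sham library. Without *Tem1WT/WT* traction replicate 1, *Il1rn* had log2 fold changes of -0.03 in *Tem1WT/WT* and 0.10 in *Tem1lacZ/lacZ* mice, and *Il1b* of 2.49 and 2.16. Outside that library the ratio thus mainly followed *Il1b* and is not a result separate from it. In CPM, which is not scaled for exon length, *Il1b* exceeded *Il1rn* in all 3 *Tem1WT/WT* and in 1 *Tem1lacZ/lacZ* traction library. Per kilobase of exon it also did so in *Tem1WT/WT* sham replicate 3, at 17.1 against 16.6 CPM/kb. On the log2 scale the mean ratio went from 2.76 in sham to 0.38 in traction, a difference of -2.38 (two-sided exact permutation test within genotypes, p = 0.005, the smallest the 400 arrangements can give; 0.01 after Benjamini-Hochberg adjustment over 2 ratios). The difference was -3.35 in *Tem1WT/WT* and -1.42 in *Tem1lacZ/lacZ* mice, each with an exact p of 0.1, the smallest that 3 against 3 can reach. Without *Tem1lacZ/lacZ* traction replicate 3 the difference in *Tem1lacZ/lacZ* mice was -0.54, and with any other library of that genotype left out it lay between -1.94 and -1.32. In *Tem1WT/WT* mice it lay between -3.92 and -2.97, the lower bound being the value without sham replicate 3. Whether these differ between genotypes was not tested.

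Since the groups did not overlap in either genotype, leaving out 1 library could not change the direction of the difference over both genotypes. The observed arrangement also stayed the most extreme in its direction, which held the exact permutation p low. Leaving out libraries thus tests only the size of the difference. With any 1 library left out, the difference lay between -2.67 and -1.94 (exact permutation p between 0.005 and 0.02). Without *Tem1WT/WT* traction replicate 1 the difference was -2.19 (exact permutation p = 0.005). The ratio of decoy to signalling receptor, *Il1r2* to *Il1r1*, differed by -0.25 on the log2 scale between traction and sham (exact permutation p = 0.555), from 0.293 to 0.714 over the sham libraries and from 0.218 to 0.873 over the traction libraries.

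**Figure D3:**
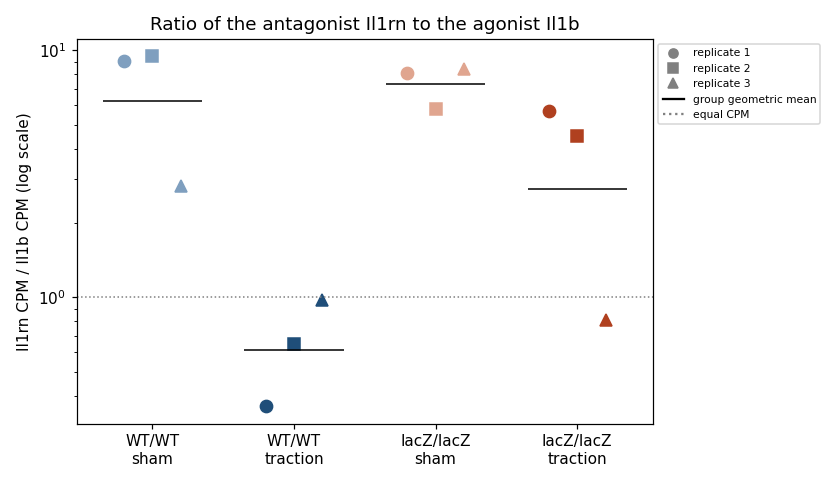
Ratio of *Il1rn* to *Il1b* CPM (log scale) in every library, by genotype and treatment. Symbols mark replicate numbers, solid lines the geometric mean of a group and the dotted line equal CPM. All 6 traction libraries lie below the sham libraries of their genotype, and 4 of them lie below 1. CPM is not scaled for exon length here.

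Other genes of the pathway were taken from lists. Of 9 further ligands and receptors of the superfamily that were tested, 1 passed with traction in *Tem1WT/WT* mice, where 9.15% of all genes did, and 0 passed without replicate 1. *Il18rap*, the second chain of the IL-18 receptor, was at 6.38, 4.25 and 6.19 CPM in sham and at 119, 25.3 and 6.82 CPM in traction (log2 fold change 3.17, SE 0.77, adjusted p = 0.0361; 1.51, adjusted p = 0.0685, without replicate 1). It rose while *Il18r1*, its partner chain, gave no call. Of 19 genes of MyD88 and IRAK signalling, 2 passed, both higher, where 9.15% of all genes passed in either direction and 5.61% as higher. They were *Irak4*, the kinase that MyD88 recruits first (0.75, SE 0.18, adjusted p = 0.0354), and *Rela*, a subunit of NF-κB (1.02, SE 0.27, adjusted p = 0.0429). Without replicate 1 neither passed, at 0.66 (adjusted p = 0.0858) and 0.63 (adjusted p = 0.114). *Tab2* passed only in the average over genotypes (0.43, SE 0.10, adjusted p = 0.0310).

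Of 17 genes of cytokine processing and release, 4 rose with traction in *Tem1WT/WT* mice, and 1 did without replicate 1. With all libraries 9.15% of all genes passed in either direction and 5.61% as higher. *Nlrp3*, the sensor of an inflammasome that activates caspase-1, was at 3.02, 2.07 and 2.77 CPM in sham and at 501, 13.6 and 19.0 CPM in traction, with no overlap (log2 fold change 6.09, SE 1.29, adjusted p = 0.0311). It passed also without replicate 1 (2.62, adjusted p = 0.0344). The pore-former *Gsdmd* (1.03, adjusted p = 0.0415), the calpain *Capn2* (0.82, adjusted p = 0.0472) and the channel *Panx1* (0.61, adjusted p = 0.0329) rose less, and their calls were lost without replicate 1 (adjusted p = 0.107, 0.114 and 0.0725). *Casp1*, which cuts the precursors of IL-1β and IL-18, stayed between 18.7 and 46.8 CPM in *Tem1WT/WT* traction and between 28.8 and 38.4 CPM in sham; it was singled out after its values were seen.

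Of 24 genes known to be induced by IL-1, 11 rose and 1 fell with traction in *Tem1WT/WT* mice, against 9.15% of all genes called. The median log2 fold change was 2.68, and 1.04 without replicate 1, when 5 were called. The neutrophil chemokines *Cxcl1* (4.29, SE 0.62, adjusted p = 0.0193), *Cxcl5* (7.15, SE 1.07, adjusted p = 0.0217) and *Cxcl3* (7.84, SE 2.15, adjusted p = 0.0475) were among them. So were *Il6* (3.92, SE 0.86, adjusted p = 0.0329), the acute-phase genes *Saa3* (6.36, SE 1.41, adjusted p = 0.0329) and *Lcn2* (4.98, SE 1.36, adjusted p = 0.0473, with overlapping groups), and the prostaglandin synthase *Ptgs2* (4.92, SE 1.16, adjusted p = 0.0349). The matrix-degrading enzymes *Mmp9* (4.17, SE 0.71, adjusted p = 0.0252) and *Mmp13* (5.19, SE 1.06, adjusted p = 0.0300) and the transcription factor *Hif1a* (1.51, SE 0.34, adjusted p = 0.0329) rose as well. *Csf3*, the granulocyte growth factor, had 0 counts in all *Tem1WT/WT* sham libraries and 29.7, 1.28 and 1.23 CPM in traction (adjusted p = 0.0311). In *Tem1lacZ/lacZ* libraries it had 0 to 43 counts. Its *Tem1WT/WT* traction mean of 10.7 CPM, set by replicate 1, was at least 165-fold above a floor of 3 counts per library. That fold was not computed without replicate 1. *Ccl20*, a chemokine for lymphocytes and dendritic cells, fell (-2.10, SE 0.50, adjusted p = 0.0352). *Vcam1*, an adhesion molecule of activated endothelium, passed only in the average over genotypes (1.13, SE 0.26, adjusted p = 0.0309).

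Without replicate 1, *Cxcl1* (3.70, adjusted p = 0.0344), *Cxcl5* (6.10, adjusted p = 0.0344), *Mmp9* (2.89, adjusted p = 0.0344), *Mmp13* (2.83, adjusted p = 0.0433) and *Csf3* (adjusted p = 0.0408) passed. *Cxcl3* (3.71, adjusted p = 0.140) and *Lcn2* (0.93, adjusted p = 0.234) moved most without it.

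In *Tem1lacZ/lacZ* mice 0 of these 24 genes passed with traction in edgeR, where 0% of all genes did. In edgeR, 4 had an unadjusted p under 0.05, against 8.12% of all genes, and the median was 0.13. *Cxcl1* was the 1 gene of the list that passed between the genotypes under traction, where 0.106% of all genes did. It was at 66.4, 37.6 and 15.8 CPM in *Tem1WT/WT* and at 2.17, 2.54 and 1.38 CPM in *Tem1lacZ/lacZ* traction. Its log2 difference was -4.30 (SE 0.62, adjusted p = 0.0335), and -3.70 (adjusted p = 0.0510) without replicate 1. In *Tem1WT/WT* sham it was at 1.19, 1.09 and 3.82 CPM, so that stretched *Tem1lacZ/lacZ* scars lay within the sham range. The interaction of *Cxcl1* was -3.98 (SE 0.81, adjusted p = 0.548), which did not pass.

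**Figure D4:**
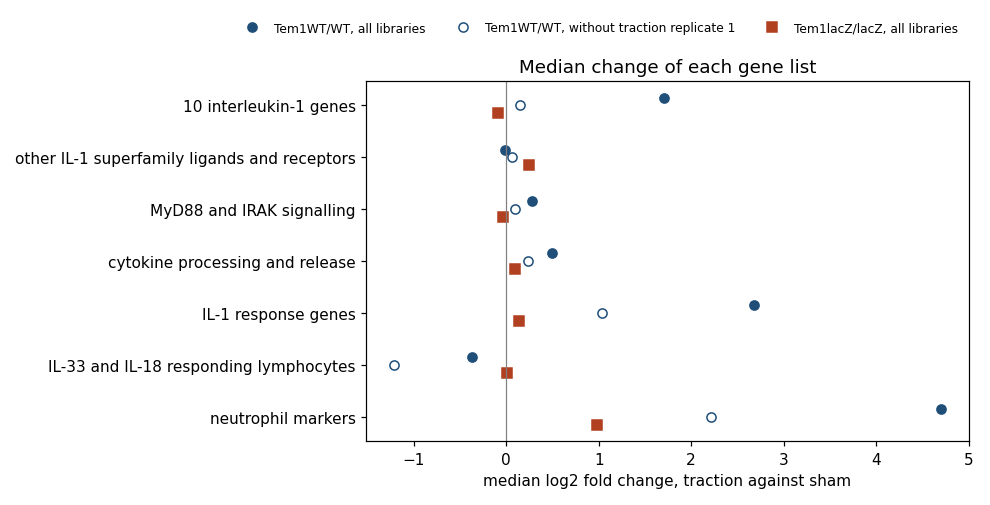
Median log2 fold change of traction against sham (x axis) over the tested genes of each list (y axis), in *Tem1WT/WT* mice with all libraries (filled circles) and without traction replicate 1 (open circles) and in *Tem1lacZ/lacZ* mice (squares). Neutrophil markers and IL-1 response genes have the largest medians of the 7 sets plotted in *Tem1WT/WT* mice, 4.70 and 2.68, and keep 2.21 and 1.04 without that library.

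Genes listed for lymphocytes that answer to IL-33 and IL-18, such as group 2 innate lymphoid cells and regulatory T cells, had mixed values. Of 15 tested, 7 had a higher and 8 a lower value with traction in *Tem1WT/WT* mice, from -3.21 to 2.22 with a median of -0.37, and the median was -1.22 without replicate 1. None passed as higher and 3 fell, against 9.15% of all genes called: the transcription factors *Gata3* (-1.30, SE 0.29, adjusted p = 0.0326), *Ikzf2* (-1.36, SE 0.36, adjusted p = 0.0446) and *Rora* (-0.79, SE 0.20, adjusted p = 0.0384). All 3 were lower in every stretched than in every sham scar. In *Tem1WT/WT* sham *Gata3*, *Ikzf2* and *Rora* stood at 49.7 to 87.8, 18.4 to 44.8 and 115 to 145 CPM. Every other gene of the list was at 7.92 CPM or less there. Which cells carried these 3 transcripts was not tested. Without replicate 1 their adjusted p was 0.0644, 0.0919 and 0.0821, and none of the list passed.

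Markers of several cell types moved with the same contrast. Of 11 neutrophil markers tested, 7 rose with traction in *Tem1WT/WT* mice, where 9.15% of all genes were called and 5.61% were called higher. They were *S100a9* (5.63, SE 1.33, adjusted p = 0.0349), *S100a8* (5.11, SE 1.28, adjusted p = 0.0386), *Csf3r* (4.70, SE 0.83, adjusted p = 0.0252), *Cxcr2* (4.86, SE 1.00, adjusted p = 0.0305), *Trem1* (6.61, SE 1.20, adjusted p = 0.0252), *Clec4d* (4.41, SE 0.92, adjusted p = 0.0309) and *Stfa2l1* (7.05, SE 1.38, adjusted p = 0.0281). Without replicate 1, 3 of them passed, *Csf3r* (3.34, adjusted p = 0.0384), *Trem1* (4.18, adjusted p = 0.0345) and *Stfa2l1* (5.57, adjusted p = 0.0484), and the median over the list went from 4.70 to 2.21. The summed level of the 13 listed markers was 66.5 to 112 CPM in *Tem1WT/WT* sham, 355 to 7531 CPM in *Tem1WT/WT* traction, 184 to 205 CPM in *Tem1lacZ/lacZ* sham and 289 to 555 CPM in *Tem1lacZ/lacZ* traction. *S100a9* and *S100a8* made up 3935 and 1296 CPM of the sum in *Tem1WT/WT* traction replicate 1. In *Tem1lacZ/lacZ* sham they were at 89.8 to 109 and 32.9 to 44.7 CPM. *Csf3r* was at 9.14 to 16.6 CPM there and at 13.6 to 20.1 CPM in *Tem1WT/WT* sham. Which cells carried *S100a8* and *S100a9* was not tested. *Ly6g*, the defining surface marker, had 0 counts in all *Tem1WT/WT* sham libraries and reached 3.76 CPM in *Tem1WT/WT* traction replicate 1. The part of neutrophils in the levels of *Il1b*, *Il1r1* and the other genes was not tested.

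**Figure D5:**
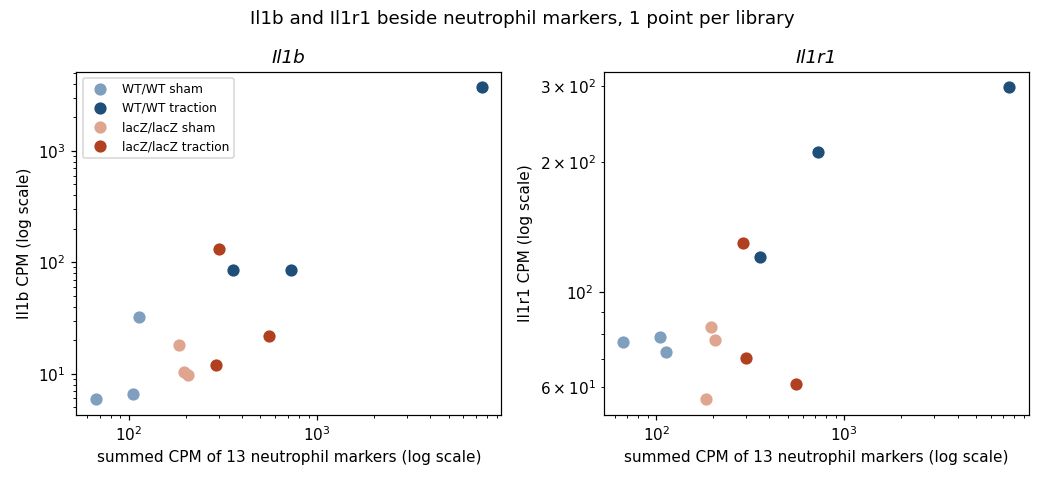
Level of *Il1b* and of *Il1r1* in CPM (y axes, log scale) against the summed CPM of 13 neutrophil markers (x axis, log scale), 1 point per library, coloured by group. *Tem1WT/WT* traction replicate 1 lies at the upper right of both panels, with 7531 CPM of neutrophil markers, 3698 CPM of *Il1b* and 298 CPM of *Il1r1*.

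Among the other markers in *Tem1WT/WT* mice, 6 of 10 endothelial genes (*Cdh5*, *Egfl7*, *Emcn*, *Esam*, *Pecam1* and *Tie1*) and 2 of 10 fibroblast genes (*Pdgfra* and *Fbln1*) rose with traction. Of all genes, 9.15% were called and 5.61% were called higher. Without replicate 1, *Egfl7*, *Emcn*, *Esam* and *Tie1* passed among the endothelial genes and 0 among the fibroblast genes. Macrophage and monocyte markers, which mark a cell type that makes *Il1b*, had a higher value in 11 of 14 genes, with a median of 0.43, or 0.36 without replicate 1. Their summed level was 3020 to 4916 CPM in *Tem1WT/WT* sham, 4705 to 5681 CPM in *Tem1WT/WT* traction, 2385 to 4648 CPM in *Tem1lacZ/lacZ* sham and 2730 to 5159 CPM in *Tem1lacZ/lacZ* traction. The part of these cells in the level of *Il1b* was not tested. In the average over genotypes the endothelial genes *Kdr* (0.73, adjusted p = 0.0409) and *Vwf* (0.97, adjusted p = 0.0446) and the collagen genes *Col1a1* (1.56, adjusted p = 0.0295) and *Col1a2* (1.34, adjusted p = 0.0392) passed as well, and the fibroblast gene *Pi16* fell (-1.03, adjusted p = 0.0462). Of 10 mast cell genes, *Mrgprb2* (-1.66, adjusted p = 0.0494) and *Ms4a2* (-1.28, adjusted p = 0.0355) fell and *Hdc*, the histamine-forming enzyme that other myeloid cells also make, rose (5.63, adjusted p = 0.0353), and none of these 3 passed without replicate 1. Of 13 keratinocyte genes, *Krt15* of basal cells fell (-2.64, adjusted p = 0.0329; -2.24, adjusted p = 0.0519, without replicate 1). None of 9 T cell or 8 adipocyte genes passed in edgeR, where 0 of each had an unadjusted p under 0.05. *Cd8a* (-0.93, SE 0.64) and *Cd4* (0.84, SE 0.44) had the largest values among the T cell genes, and *Plin1* (-1.66, SE 1.53) and *Adipoq* (-1.57, SE 1.52) among the adipocyte genes. Without replicate 1 the T cell median went from 0.16 to -1.33 and *Cd3g* fell (-1.98, adjusted p = 0.0448), and the adipocyte median went from -1.28 to -3.13 with 0 called. The summed fibroblast level was 27018 to 42489 CPM in *Tem1WT/WT* sham and 44690 to 111880 CPM in traction, and the endothelial sum 416 to 609 CPM and 976 to 1223 CPM. Their part in the level of *Il1r1*, which stromal cells express, was not tested.

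The genes most alike in level were taken from the 13646 tested genes whose log2 CPM averaged 1 or more, by Pearson's r of log2 CPM over the 12 libraries, which share the 4 groups. *Il1b* was most like *Osm* (r = 0.979, and 0.936 without *Tem1WT/WT* traction replicate 1), *Tnfrsf26* (0.979 and 0.938) and *Clec4e* (0.971 and 0.910). *Il1r1* was most like *Sbno2* (0.962 and 0.943), *Pcsk5* (0.959 and 0.936) and *Fgf7* (0.953 and 0.908). For both genes r changed little without that library.

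*Il1a* and *Il1rn* were most like each other of all genes compared (r = 0.979, and 0.845 without that library). Next came *Irak2* (0.947 and 0.566) and *Stat4* (0.946 and 0.604) for *Il1a*, and *Hcar2* (0.966 and 0.740) and *Ifrd1* (0.965 and 0.752) for *Il1rn*. *Il1a* and *Il1b*, although neighbours on chromosome 2, had an r of 0.752 over 12 libraries and of -0.02 over the 11 without it. *Il1rap* was most like *Sod2* (0.974 and 0.630), *Amica1* (0.969 and 0.589) and *Gripap1* (0.965 and 0.707), and *Il1r2* most like *Serpina3g* (0.958 and 0.766), *Amica1* (0.955 and 0.782) and *Syngr2* (0.949 and 0.774). For these 4 genes the likeness was lower without that library.

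*Il33* was most like *Erp44* (r = 0.952, and 0.939 without that library), *Il13ra1* (0.923 and 0.920) and the wound keratin *Krt16* (0.909 and 0.915). *Il1rl1* was most like *Cd80* (0.942 and 0.907), *Rhoa* (0.931 and 0.885) and *Mob3a* (0.916 and 0.854). *Il18* was most like 2 genes of the cornified layer of the epidermis, *Lce1k* (0.979 and 0.979) and *Lce1f* (0.966 and 0.968), and *Tmem29* (0.975 and 0.966). *Il18r1* was most like the class I genes *H2-Q7* (0.954 and 0.961) and *H2-T10* (0.925 and 0.910), which belong to a family whose copies share reads and are uncertain, and *Slc1a1* (0.920 and 0.903). These values describe 12 libraries, or 11 without *Tem1WT/WT* traction replicate 1, and carry no test.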

How the data were processed

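Bulk RNA-seq of 12 mouse scars was used. Per the paper's methods and the processing notes, stranded poly(A) libraries (TruSeq Stranded mRNA) were read in pairs, trimmed with fastp 0.20.0, aligned to GRCm38 with HISAT2 2.1.0 and counted per gene with featureCounts 2.0.0. The authors deposited raw counts, 1 file per library, without normalization. The annotation, the strand setting and the treatment of multi-mapping reads are not given in the sources used here. Library totals were 41536788 to 64644293 counts.

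The software was edgeR 4.0.16, DESeq2 1.42.0 and limma 3.58.1 under R 4.3.3, and matplotlib 3.10.9 under Python 3.11.15 for plots. After filterByExpr by group, counts were scaled by TMM and fitted in edgeR by robust quasi-likelihood with 4 group means over all 12 libraries (8 residual degrees of freedom). All 6 contrasts were two-sided, and p-values were adjusted by Benjamini and Hochberg across the whole set of tested genes, with calls made under 0.05. Ratios were compared by exact permutation of treatment within genotype, with 0.1 CPM added. The scripts were tested on simulated data.

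Groups and replicate numbers came from the sample labels. The labels number the scars without naming separate animals, so the p-values measure only the spread between these samples. No pair of libraries in a group was a copy. The 10 genes and the lists of pathway and marker genes were chosen with earlier results of these data known, so that no list is independent evidence. Named were all 10 genes, every list gene called in any contrast (except 1 that is not reported here) or, where a list had none, its 2 largest changes with traction in *Tem1WT/WT* mice, and for each of the 10 genes the 3 most alike by r. Alternatives were no count filter, the size factors of DESeq2, upper quartile scaling, the Wald test of DESeq2, limma-voom weighted by sample, a block for replicate number, fits restricted to the compared libraries, leaving out each library in turn and, for ratios, 0.5 CPM added. Leaving out *Tem1WT/WT* traction replicate 1 in the gene lists and leaving out each library for a ratio within 1 genotype were added after the data were seen. Promoter sequences came from RefSeq for GRCm38.p6, exon lengths from GENCODE vM21. Protein sequences were not used here.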

Additional observations from a re-analysis of the deposited data

How the results depend on the processing

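With traction in *Tem1WT/WT* mice, the number of the 10 genes called was 2 as reported, 1 with all genes of at least 1 count, 1 with limma-voom, 4 of the 7 given an adjusted p by DESeq2 (*Il1r1*, *Il1r2*, *Il33* and *Il1rl1*; it gave none for *Il1a*, *Il1b* and *Il1rn*), 0 with only the libraries of the groups compared, and 0 to 5 with 1 library left out. Between the genotypes under traction it was 0, 3 with DESeq2, and 0 to 1 with 1 library left out. For the average over genotypes it was 2, then 0 with all genes of at least 1 count, 1 with upper quartile scaling, 0 with the replicate block, and 0 to 2 with 1 library left out. The size factors of DESeq2 kept each of these counts, and the number stayed at 0 in every setting of the other 3 contrasts. The cause of these shifts was not tested. Over all genes, traction in *Tem1WT/WT* mice gave 1725 calls, 61.3% of them higher, against 1011 with all genes of at least 1 count, 4047 with DESeq2, 748 with limma-voom, 83.0% of them higher, 0 with only the libraries compared and 0 to 2861 with 1 library left out. Upper quartile scaling gave 1673 calls, 43.9% of them higher, and moved the median of all genes to -0.12 there and to 0.14 between the genotypes under traction. The latter contrast gave 20 calls in edgeR, 2334 with DESeq2, 0 with only the libraries compared and 3 to 1421 with 1 library left out. Traction in *Tem1lacZ/lacZ* mice gave 0 calls, 28 with DESeq2, 435 with limma-voom and 0 to 73 with 1 library left out. The sham groups gave 2 calls and 43 with DESeq2, and the interaction 0, 69 with DESeq2 and 0 to 31 with 1 library left out. The average gave 1835 calls, 66.8% of them higher, against 1478 and 51.2% with upper quartile scaling, 1198 with all genes of at least 1 count, 3850 with DESeq2, 3881 with limma-voom and 0 to 3422 with 1 library left out.

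The replicate block was tried because libraries of different groups share numbers. Deviations of same-numbered libraries correlated from -0.32 to 0.25, so the numbers were not taken as pairs. With the replicate block, *Il1b* in *Tem1WT/WT* mice was at 6.30 (adjusted p = 0.0766) and *Il1rl1* at 1.76 (adjusted p = 0.0477), the averages of *Il1b* and *Il1r1* were 3.79 (adjusted p = 0.0818) and 0.83 (adjusted p = 0.0646), and the ratio of *Il1rn* to *Il1b* kept -2.38 (exact sign-flip permutation p = 0.03125, the smallest it can give).

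Of 1102 values for single genes, 60 changed sign, none of them past the threshold. Outside left-out libraries, traction in *Tem1lacZ/lacZ* mice turned to -0.0164 for *Il1rn* and -0.40 for *Il33* with limma-voom and to -0.14 for *Il1rn* with the block. The genotype difference under traction turned to 0.18 for *Il1a* and 0.0425 for *Il18r1* with limma-voom. That in sham mice turned to -0.0198 for *Il18r1* with all genes of at least 1 count, 0.0373 for *Il1rap* with upper quartile scaling, 0.0316 for *Il1r2* with limma-voom, and 0.41 for *Il1b* and 0.0713 for *Il1r2* with the block. The interaction of *Il18* turned to 0.0093 with all genes of at least 1 count and 0.0289 with upper quartile scaling. With 1 library left out, log2 values with traction in *Tem1WT/WT* mice ran from -0.59 to 4.48 for *Il1a*, -0.0291 to 3.37 for *Il1rn*, -0.0483 to 1.59 for *Il1rap*, -0.47 to 0.17 for *Il18* and -1.33 to 0.11 for *Il18r1*. In *Tem1lacZ/lacZ* mice they ran from -0.33 to 0.19 for *Il1a*, -0.12 to 0.34 for *Il1rn*, -0.13 to 0.52 for *Il1r1*, -0.23 to 0.11 for *Il1r2*, -0.14 to 0.0629 for *Il1rap*, -0.30 to 0.71 for *Il33* and -0.58 to 0.009 for *Il18*. Between genotypes under traction they ran from -3.77 to 1.30 for *Il1a*, -2.90 to 0.50 for *Il1rn*, -0.91 to 0.17 for *Il33* and -0.84 to 0.53 for *Il18r1*. Between sham groups they ran from -0.60 to 1.06 for *Il1b*, -0.21 to 0.0666 for *Il1r1*, -0.35 to 0.36 for *Il1r2*, -0.12 to 0.0284 for *Il1rap*, -0.32 to 0.81 for *Il1rl1* and -0.30 to 0.51 for *Il18r1*. Interactions ran from -4.60 to 0.50 for *Il1a*, -3.30 to 0.12 for *Il1rn*, -1.61 to 0.028 for *Il1rap*, -0.48 to 0.28 for *Il18* and -0.93 to 0.54 for *Il18r1*, and averages from -0.34 to 2.19 for *Il1a* and -0.0342 to 0.79 for *Il1rap*.

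The main limits are 3 scars per group, 1 library that sets the size of several changes, and bulk tissue in which cell makeup and expression cannot be told apart. Depth was not limiting, with at least 170 counts for each of the 10 genes in every library.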
